A study of Mus musculus with 8 samples.

Results

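The genes described here are 41 interferon-stimulated genes and interferon signalling factors: antiviral effectors, nucleic acid sensors, transcription factors and receptor chains. They were picked by name, without the GBP and IRG GTPase families, although Ifi47 on this list does encode an IRG-family GTPase, and Ifnar1, Ifnar2, Ifngr1 and Irf3 act in the pathway rather than being typical induced genes. All 41 had a row among the 24421 genes of the count table, and all 41 passed the filter on low counts that left 12363 genes for testing. Oas2 passed it only through the WT libraries (4 of them at the filter level, against 1 Blimp1-flox library), so its difference between groups is given as a description.

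Poly(A) RNA was sequenced from follicular regulatory T (TFR) cells, regulatory T cells of the B cell follicle, sorted from mouse spleen. The 2 groups were 4 wildtype (WT) libraries and 4 libraries of the genotype Blimp1-flox Foxp3-cre, called Blimp1-flox below. All mice had been given peanut with cholera toxin by mouth 2 times and were sampled 36 days later, and all cells were sorted as Foxp3+YFP+ CXCR5+ PD1+ after enrichment of CD4+ T cells. Cre under the control of Foxp3 acts in Foxp3-expressing cells, so it would also act in regulatory T cells outside the follicle. Whether WT mice carried Foxp3-cre, how many alleles were floxed, the age of the mice and whether each library came from a separate mouse are not stated in these sources, and the p-values reflect library-to-library spread, which may be technical. In bulk RNA, fewer cells of a type and less RNA per cell cannot be told apart.

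Interferons are cytokines that switch on antiviral genes. Type I interferons bind a receptor made of the Ifnar1 and Ifnar2 chains, and the kinases JAK1 and TYK2 then activate a complex with STAT2 and IRF9 that binds a promoter element called the ISRE. Interferon gamma binds a receptor that includes Ifngr1, acts through an element called GAS and induces Irf1. Blimp1, the repressor encoded by Prdm1, was first described as a factor that binds the interferon beta promoter, and the DNA it prefers resembles sites of the interferon regulatory factors (IRFs).

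Promoter stretches from RefSeq (GRCm38.p6, the sequence of mm10) are shown first for the 2 called genes with a promoter entry, Ifit1 and Irf1, for Ifi203 and Ifit3, which were low in every Blimp1-flox library, and for Isg15, a widely used marker of interferon response. Capitals mark matches to GAAANNGAAA, the core of the ISRE, on either strand, or for Irf1 to TTCNNNGAA, the core of a GAS element. Each reads 5′ to 3′ on the strand of its gene and ends before a RefSeq start site. For Ifi203 that start lies inside the locus of the annotation used for gene positions (chromosome 1, 173920401 to 173942672, minus strand), which begins further upstream.
Ifit1, chr19:34640765-34640833, plus strand: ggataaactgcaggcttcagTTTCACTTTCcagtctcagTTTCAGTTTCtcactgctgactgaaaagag
Irf1, chr11:53769904-53769952, plus strand: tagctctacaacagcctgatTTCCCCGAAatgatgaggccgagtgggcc
Ifi203, chr1:173942498-173942547, minus strand: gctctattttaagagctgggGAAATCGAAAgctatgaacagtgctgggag
Ifit3, chr19:34583353-34583436, plus strand: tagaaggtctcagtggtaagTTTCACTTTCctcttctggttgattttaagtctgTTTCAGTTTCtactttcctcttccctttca
Isg15, chr4:156200855-156200916, minus strand: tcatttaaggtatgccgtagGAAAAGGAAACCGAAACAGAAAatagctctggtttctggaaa

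Ifit1 and Ifit3 each held 2 separate ISRE cores, and Isg15 held 3 in a row, each overlapping the next. Of 31 list genes with a promoter entry, 14 (45.2%) had an ISRE core within 250 bases before to 50 bases after a start site, as did 3.91% of the 17224 genes of the count table with an entry. The GAS core occurred in 11 of the 31 (35.5%) and in 9.27% of all genes. A short Blimp1 core, GNGAAAG, occurred in 7 of the 31 (22.6%) and in 25.4% of all genes, and in none of the 7 did it overlap an ISRE core. These matches are letters in a window, not shown to be bound sites. Genes with an ISRE core had a median log2 fold change of -0.37 and those without one -0.33. No entry was at hand for Mx1, Oas2, Dhx58, Zbp1, Ifi204, Usp18, Parp9, Parp14, Rtp4 and Ifi27l2a.

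Library totals ran from 16425538 to 27595939 counts. Prdm1, the floxed gene, was at 31.8 to 71.0 CPM in WT (CPM, counts scaled to the library total after TMM normalization) and at 7.53 to 16.6 CPM in Blimp1-flox, so each library lay on the side of its label. All 11 listed markers of TFR cells were detected, with Cxcr5 at 391 to 568 CPM and Cd4 at 1070.4 to 1352 CPM over the 8 libraries. Of the 11, Il2ra, the IL-2 receptor alpha chain, fell in Blimp1-flox (81.3 to 121 CPM in WT, 28.1 to 55.4 CPM in Blimp1-flox; log2 fold change -1.39, edgeR adjusted p = 0.0311). Foxp3 was at 72.5 to 105 CPM in WT and 55.7 to 75.5 CPM in Blimp1-flox, and did not pass (-0.40, edgeR adjusted p = 0.176). On principal components of all tested genes WT 4 stood apart from the other WT libraries (PC1 of -51.8 against -19.7 to -1.77) and Blimp1-flox 3 from all others (PC2 of -50.8 against -1.62 to 12). Transcripts of B cells were present, and most of all in WT 4. The 20 B cell genes listed for this check summed to 651 to 2761 CPM in WT and to 573 to 710.1 CPM in Blimp1-flox, and none of the 20 was at 0 in every library. Most of each sum came from Cd74 and Cd22, which overlapped between groups (log2 fold changes of -0.83 and 0.024). The difference of these sums missed the threshold in an exact permutation test (two-sided, 70 assignments; log2 difference -0.79, p = 0.0857). The mean log2 CPM of the same genes, which gives each gene equal weight, was 2.89 to 5.75 in WT and 1.07 to 2.06 in Blimp1-flox, without overlap (difference -2.31, exact permutation p = 0.0286, the smallest possible). This mean is the B cell score of the fits described later, and its test was added after the values were seen.

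All 41 genes had lower fitted levels in Blimp1-flox cells in the edgeR fit of all 8 libraries, while 49.9% of all tested genes had a negative log2 fold change. Signs near 0 depended on the fit: Oas3 turned positive under upper-quartile scaling and in limma-voom, Ifi27l2a in limma-voom, Oas3, Ifnar1 or Ifi27l2a in 5 of the 8 fits without 1 library each, and others in the fits described later. The differences were mostly small: the median log2 fold change over the 41 was -0.36 (-0.35 without Oas2), against 0.0012 over all tested genes. Negative values mean lower in Blimp1-flox, and come from edgeR's quasi-likelihood test with p-values adjusted over all tested genes. Of the 41, 3 fell at an adjusted p under 0.05, none rose and 38 did not pass. Over all tested genes 0.243% were called lower. The 3 were Irf1, Ifit1 and Parp14. At an unadjusted p under 0.05, 20 of the 40 genes other than Oas2 were lower and none higher, against 9.05% of all tested genes that were lower. In 10 of these 40 every Blimp1-flox library lay below every WT library, against 4.72% of all tested genes. DESeq2 called 7 of these 40 lower, and Oas2 besides (1.89% of all genes with an adjusted p). Limma-voom with quality weights called 8 lower (2.27% of all genes), and both sets included the 3.

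**Figure D1:**
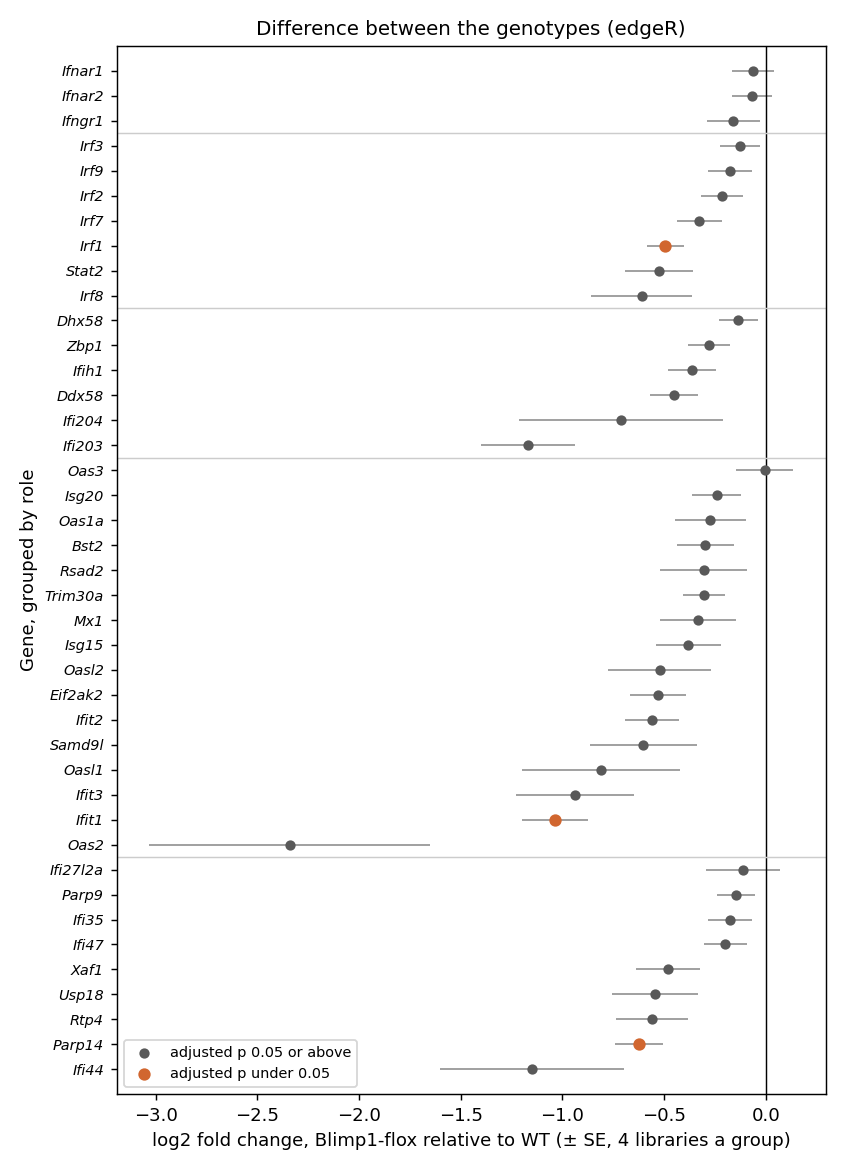
Log2 fold change of each of the 41 genes, Blimp1-flox relative to WT, with its standard error (4 libraries a group), grouped by role from receptors at the top to regulators at the bottom. Orange points are the 3 genes with an adjusted p under 0.05 (Irf1, Ifit1, Parp14), and every point lies at or left of 0, with Oas3 nearest to it and the receptor chains close by.

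By role the receptor chains had the smallest median log2 fold change, -0.07, and none of the 3 passed in edgeR, also not at an unadjusted p under 0.05, in DESeq2 or in limma-voom. Ifnar1, a chain of the type I interferon receptor, was at 211, 252, 210.4 and 211 CPM in WT 1 to WT 4 and at 179.7, 226, 232 and 209 CPM in Blimp1-flox 1 to 4. Its groups overlapped, and its log2 fold change, -0.06 ± 0.10 (SE), did not pass (edgeR adjusted p = 0.799). Ifnar2, the other chain, was at 154, 184, 162 and 163 CPM in WT, against 155, 141, 179 and 157 CPM in Blimp1-flox. Those ranges also overlapped (-0.07 ± 0.10, SE; edgeR adjusted p = 0.761). Ifngr1, the ligand-binding chain of the interferon gamma receptor, was at 92.6, 95.3, 87.1 and 122 CPM in WT, against 84.5, 75.2, 106 and 89.6 CPM in Blimp1-flox. WT 4 was its highest library, and the difference on the log2 scale was -0.16 ± 0.13 (SE; edgeR adjusted p = 0.565).

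Among transcription factors Irf1 fell, and the other 6 did not pass. Irf1 encodes an activator induced by interferon gamma and by antigen receptor signals. Its levels were 622, 625, 614 and 627 CPM in WT, against 414, 434, 509 and 408 CPM in Blimp1-flox. The WT libraries lay close together and above all Blimp1-flox libraries, of which Blimp1-flox 3 was the highest. Irf1 (chromosome 11, 53770014 to 53778374 in mm10) fell 1.41-fold (-0.50 ± 0.09 on the log2 scale, SE; edgeR adjusted p = 0.0339). It missed the threshold when WT 2 (adjusted p = 0.106), WT 3 (0.0834), Blimp1-flox 1 (0.109), Blimp1-flox 2 (0.0731) or Blimp1-flox 4 (0.170) was left out, while the log2 fold change stayed between -0.57 and -0.46 under all alternatives. Without WT 4 Irf1 still passed (-0.49, edgeR adjusted p = 0.0446).

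Irf7, the amplifier of type I interferon production, was at 115, 128, 124 and 156 CPM in WT, against 107, 90.2, 110.1 and 109 CPM in Blimp1-flox. Every Blimp1-flox library was below every WT library, by a small margin for Blimp1-flox 3, and the gene did not pass (-0.33 ± 0.11, SE; edgeR adjusted p = 0.191). Irf9, the DNA-binding partner of STAT2, was at 141, 169, 158 and 204 CPM in WT, against 159, 141, 149 and 147 CPM in Blimp1-flox. Its groups overlapped (-0.18 ± 0.11, SE; edgeR adjusted p = 0.450). Stat2 and Irf8, a factor that B cells and myeloid cells also use, had log2 fold changes of -0.52 and -0.61. Irf2, which competes with Irf1 for its sites, and Irf3, which acts downstream of nucleic acid sensors, had values of -0.22 and -0.13. None of these 4 passed (edgeR adjusted p from 0.182 to 0.544).

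Cytosolic nucleic acid sensors detect viral RNA or DNA and induce interferon. None of the 6 passed in edgeR, and 4 were lower at an unadjusted p under 0.05, as were 9.05% of all tested genes. Zbp1, a sensor of Z-form nucleic acid that can start cell death, was at 115, 128, 133 and 157 CPM in WT, against 109, 100.4, 117 and 112 CPM in Blimp1-flox. The group ranges overlapped only through WT 1 and Blimp1-flox 3 (-0.28 ± 0.10, SE; edgeR adjusted p = 0.231). Ddx58, which encodes the viral RNA sensor RIG-I, was at 92.9, 123, 97.6 and 116 CPM in WT, against 67.2, 86.6, 82.0 and 78.1 CPM in Blimp1-flox. Its groups did not overlap, and its log2 fold change of -0.45 ± 0.12 (SE) missed the threshold in edgeR (adjusted p = 0.103) and passed in DESeq2 (adjusted p = 0.0199) and limma-voom with quality weights (adjusted p = 0.0375). Dhx58, the RIG-I relative LGP2, was at 57.4, 66.9, 60.5 and 66.1 CPM in WT, against 58.8, 53.5, 60.7 and 55.5 CPM in Blimp1-flox, with overlapping groups (-0.14 ± 0.09, SE; edgeR adjusted p = 0.504).

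Ifi203 and Ifi204 encode nuclear proteins of a DNA-binding family that lies clustered on chromosome 1. Ifi203 was at 84.4, 95.7, 93.0 and 186 CPM in WT, against 46.8, 58.4, 50.3 and 48.6 CPM in Blimp1-flox, so WT 4 held nearly double the other WT libraries while all 4 Blimp1-flox libraries lay below every WT library. With all libraries it just missed the threshold (-1.17 ± 0.23, SE; edgeR adjusted p = 0.0579), and without WT 4 it passed with a smaller and tighter difference (-0.83 ± 0.11, SE; edgeR adjusted p = 0.00447). It passed without WT 1 as well. Close relatives of this family can share reads, so its counts are uncertain. Ifi204 was near the floor of detection, at 0.646 to 2.91 CPM in WT, against 0.503 to 1.19 CPM in Blimp1-flox. Ifih1, the sensor MDA5, differed by -0.36 on the log2 scale (edgeR adjusted p = 0.179, limma-voom 0.0474).

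**Figure D2:**
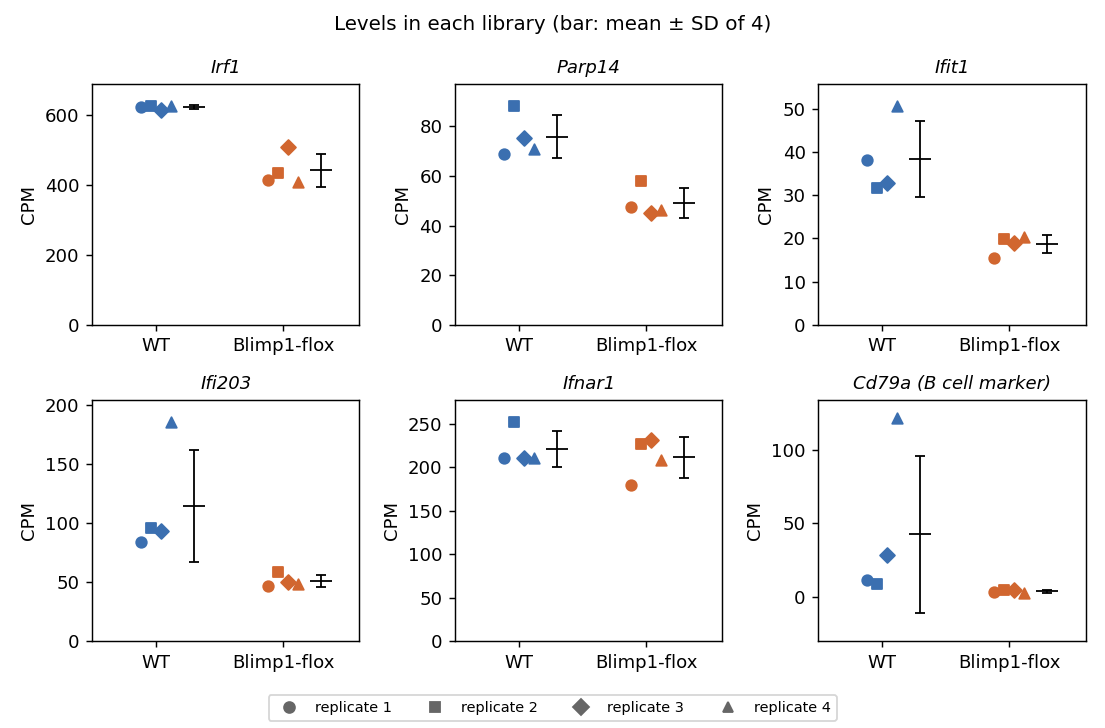
CPM in each library for Irf1, Parp14, Ifit1, Ifi203, the receptor gene Ifnar1 and the B cell gene Cd79a; symbols give the replicate number and bars the mean ± SD of 4 libraries. Irf1, Parp14, Ifit1 and Ifi203 are lower in every Blimp1-flox library, Ifnar1 overlaps, and WT 4 stands far above the rest for Ifi203 and Cd79a (122 CPM).

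In edgeR 1 of 16 antiviral effectors fell (0.243% of all tested genes were called lower) and the other 15 missed the threshold. DESeq2 called 4 lower, Oas2 among them (1.89% of all genes with an adjusted p), and limma-voom 3 (2.27% of all genes). The median log2 fold change of the 16, Oas2 included, was -0.45. Ifit1 encodes a protein that binds viral RNA lacking the host cap methylation. It was at 38.1, 31.5, 32.8 and 50.7 CPM in WT, against 15.5, 19.8, 19.0 and 20.3 CPM in Blimp1-flox, so even the lowest WT library exceeded the highest Blimp1-flox library. Ifit1 (chromosome 19, 34640889 to 34650009 in mm10) fell 2.05-fold (-1.04 ± 0.16, SE; edgeR adjusted p = 0.0148). The call held in 7 of 8 fits that left out 1 library each and was lost without Blimp1-flox 1 (-0.96, edgeR adjusted p = 0.0657) and with the B cell score (-0.67, edgeR adjusted p = 0.742). Its neighbours and relatives Ifit2 and Ifit3 did not overlap between groups either. Ifit2 was at 23.9, 33.6, 28.4 and 32.9 CPM in WT and at a narrow 19.8 to 21.0 CPM in Blimp1-flox (-0.56 ± 0.13, SE; edgeR adjusted p = 0.0861, DESeq2 0.00655, limma-voom 0.0255). Ifit3 was at 5.05 to 11.4 CPM in WT, against 2.95 to 4.93 CPM in Blimp1-flox (-0.94 ± 0.29, SE; edgeR adjusted p = 0.171).

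Isg15, a ubiquitin-like modifier, was at 58.4, 38.4, 41.4 and 43.3 CPM in WT, against 42.8, 28.0, 31.4 and 37.2 CPM in Blimp1-flox. WT 1 was its highest library, and the groups overlapped (-0.38 ± 0.16, SE; edgeR adjusted p = 0.269). Isg20, an exonuclease that degrades RNA, was at 92.5, 77.6, 85.8 and 108 CPM in WT, against 88.9, 67.4, 71.1 and 80.3 CPM in Blimp1-flox, also overlapping (-0.24 ± 0.12, SE; edgeR adjusted p = 0.349). Bst2, the tether that holds budding virus at the membrane, was at 48.4, 37.9, 38.3 and 54.9 CPM in WT, against 42.3, 32.9, 33.5 and 37.5 CPM in Blimp1-flox. Both groups overlapped there too (-0.30 ± 0.14, SE; edgeR adjusted p = 0.313). Eif2ak2, the kinase PKR that stops translation on double-stranded RNA, did not overlap between groups and differed by -0.53 on the log2 scale (edgeR adjusted p = 0.106, DESeq2 0.0199, limma-voom 0.0328).

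The oligoadenylate synthetase family, whose members activate RNase L or bind RNA, spread widely. Oas3 had nearly equal levels, 42.8 ± 6.32 CPM in WT, against 42.6 ± 6.45 CPM in Blimp1-flox (SD, n = 4), and its log2 fold change of -0.0065 was the nearest to 0 of the 41. Oas1a, Oasl1 and Oasl2 had log2 fold changes of -0.27, -0.81 and -0.52, with overlapping groups. Oas2 was at 1.33, 1.30, 0.746 and 2.43 CPM in WT, against 0.365, 0.499, 0 and 0.298 CPM in Blimp1-flox. Its 2 groups did not overlap. The remaining effectors, Mx1, Rsad2, Samd9l and Trim30a, had log2 fold changes of -0.33, -0.30, -0.60 and -0.31, overlapped between groups, and did not pass (edgeR adjusted p from 0.191 to 0.503).

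In the last role, regulators and other induced genes, 1 of 9 fell (0.243% of all tested genes were called lower), none rose and 8 did not pass. Parp14, an ADP-ribosyltransferase that works with Parp9, was at 69.0, 88.4, 75.2 and 71.0 CPM in WT, against 47.7, 58.1, 44.9 and 46.3 CPM in Blimp1-flox. WT 4 was not high here, and every Blimp1-flox library lay below every WT library. Parp14 (chromosome 16, 35832878 to 35871382 in mm10) fell 1.54-fold (-0.62 ± 0.12, SE; edgeR adjusted p = 0.0360). Leaving out WT 2 (adjusted p = 0.113), WT 3 (0.0834), Blimp1-flox 1 (0.113), Blimp1-flox 3 (0.0644) or Blimp1-flox 4 (0.170) ended its call, and its log2 fold change was -0.65 without WT 4. Parp9, whose exons overlap Dtx3l on the other strand, had a log2 fold change of only -0.15.

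Ifi27l2a, a small mitochondrial protein gene, was the most abundant of the list and varied widely within groups, at 449, 393, 357 and 557 CPM in WT, against 511, 366, 284 and 464 CPM in Blimp1-flox. The groups overlapped (log2 fold change -0.11 ± 0.18 SE, edgeR adjusted p = 0.797), and its exons overlap Ifi27 on the other strand. Ifi47 was at 144, 129.6, 154 and 160.5 CPM in WT, against 132, 122, 111 and 147 CPM in Blimp1-flox (-0.20 ± 0.11, SE; edgeR adjusted p = 0.375), and shares exon sequence with Olfr56. Ifi35, a partner of the regulator Nmi, was at 92.5, 78.7, 85 and 108 CPM in WT, against 82.1, 75.8, 79.4 and 84.6 CPM in Blimp1-flox, with overlap (-0.18 ± 0.11, SE; edgeR adjusted p = 0.435). Usp18, which removes Isg15 from proteins and dampens the receptor, had a log2 fold change of -0.55, Rtp4 -0.56, Xaf1 -0.48 and Ifi44 -1.15, and none passed (edgeR adjusted p from 0.178 to 0.248), although the groups of Xaf1 did not overlap. In each of these 4 genes WT 4 was the highest library.

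Levels scaled to exon length as well as depth (RPKM, mean of 8 libraries) allow the genes to be ranked against one another. Ifi27l2a stood first at 478 RPKM, followed by Irf1 at 158, Ifi47 at 68.2, Irf7 at 63.2 and Ifi35 at 63.0 RPKM. Isg20, Irf2, Bst2 and Isg15, ranks 9 to 12, lay between 53.0 and 53.3 RPKM and did not differ beyond their spread. Antiviral effectors ran from rank 9 (Isg20) to the bottom of the order. Against the 3 of them just named, Mx1 was at 3.93, Rsad2 at 3.15, Ifit3 at 2.87 and Oas2 at 0.225 RPKM. Oas2 was the lowest of the 41. The spread within a group was modest, with a median coefficient of variation over the 41 genes of 15.8% in WT and 11.9% in Blimp1-flox.

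**Figure D3:**
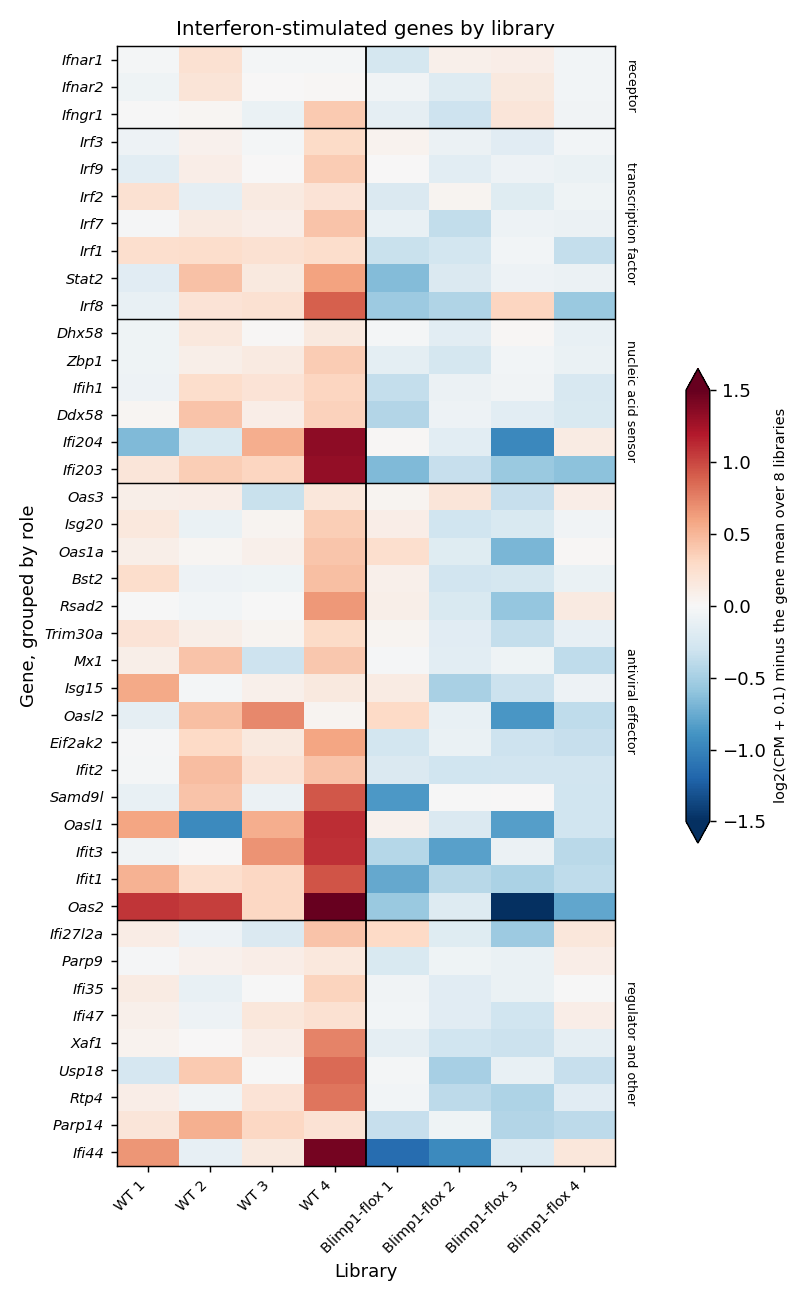
Level of each of the 41 genes (rows, by role) in each library (columns), as log2(CPM + 0.1) minus the mean of the gene over 8 libraries; red is above and blue below that mean, and colours saturate at the ends of the scale. WT 4 is the reddest column, and the 4 Blimp1-flox columns are mostly blue.

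WT 4 carried the highest level of 30 of the 41 genes, where it was the highest library for 19.6% of all tested genes. WT 2 was highest for 7, WT 1 for 2, and WT 3 and Blimp1-flox 2 for 1 each. WT 2 was the lowest library for 1 gene, and the lowest for every other gene was a Blimp1-flox library. Averaged over the 41 genes, the deviation from each gene's own mean was 0.087, 0.14, 0.13 and 0.55 (log2 CPM) in WT 1 to 4, against -0.19, -0.23, -0.31 and -0.16 in Blimp1-flox 1 to 4. WT 4 thus stood apart from the other WT libraries, and all WT libraries lay above all Blimp1-flox libraries on this mean. The mean includes Oas2, which passed the filter only through the WT libraries.

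The B cell score was also highest in WT 4 and lower in every Blimp1-flox library. Apart from WT 4, its order within a group differed from that of the mean deviation above. WT 3 had a score of 3.97 and WT 2 of 2.89, with mean deviations of 0.13 and 0.14. Blimp1-flox 4 had the lowest score, 1.07, and the highest mean deviation of the Blimp1-flox libraries, -0.16. Ms4a1, a surface marker of B cells, was at 65.0 CPM in WT 4, at 4.76 to 17.2 CPM in the other WT libraries, and at 0.639 to 1.75 CPM in Blimp1-flox. Cd79a, a chain of the B cell receptor, was at 11.1, 8.73, 28.1 and 122 CPM in WT, against 3.47, 4.28, 4.57 and 2.51 CPM in Blimp1-flox. Of 20 B cell genes none passed in edgeR. At an unadjusted p under 0.05, 16 were lower (9.05% of all tested genes). DESeq2 called 12 lower (1.89% of all genes with an adjusted p) and limma-voom 1 (2.27% of all genes). A negative log2 fold change was found for 19 (49.9% of all tested genes). In 12 every Blimp1-flox library lay below every WT library (4.72% of all tested genes). Of the other cell types, the 6 genes listed for plasmacytoid dendritic cells, the main producers of type I interferon, also did not overlap, with sums of 141 to 166 CPM in WT and 112 to 140 CPM in Blimp1-flox. Most of that sum was Pacsin1, and the defining marker Siglech was at 0 to 0.821 CPM. Summed levels of the 15 myeloid and dendritic genes overlapped (40.8 to 60.4 CPM in WT, 35.8 to 121 CPM in Blimp1-flox), as did the 7 plasma cell genes (287 to 357 CPM, 274 to 380 CPM), the 7 CD8 T and NK cell genes (36.4 to 50.5 CPM, 49.7 to 54.3 CPM), the 8 erythroid and platelet genes (14.0 to 29.5 CPM, 5.43 to 14.5 CPM) and the 15 pancreas genes (33.2 to 70.9 CPM, 51.8 to 106 CPM). Single genes of these lists did differ: Sdc1, a plasma cell marker also found on other cells, rose in Blimp1-flox (0.922 to 2.22 CPM in WT, 3.20 to 6.93 CPM in Blimp1-flox; edgeR adjusted p = 0.0334). Klrb1c, Cela1, Prss2 and the myeloid gene Cd68 were higher in every Blimp1-flox library than in any WT library and did not pass in edgeR (adjusted p from 0.103 to 0.117). Cd68 was at 11.1 to 16.7 CPM in WT and 17.5 to 27.5 CPM in Blimp1-flox. Tcf4 and Pacsin1, both listed for plasmacytoid dendritic cells, were lower in every Blimp1-flox library and did not pass in edgeR (adjusted p = 0.264 and 0.255). Of these lists DESeq2 called 2 myeloid and dendritic, 2 pancreas, 1 CD8 T and NK cell and 1 plasma cell gene higher. It called 1 erythroid and platelet gene lower. Limma-voom called 1 pancreas, 1 CD8 T and NK cell and 1 plasma cell gene higher, and 1 plasmacytoid dendritic cell gene lower. Over all genes DESeq2 called 199 higher and limma-voom 213. The part of any of these transcripts in the differences was not tested beyond the fits below.

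**Figure D4:**
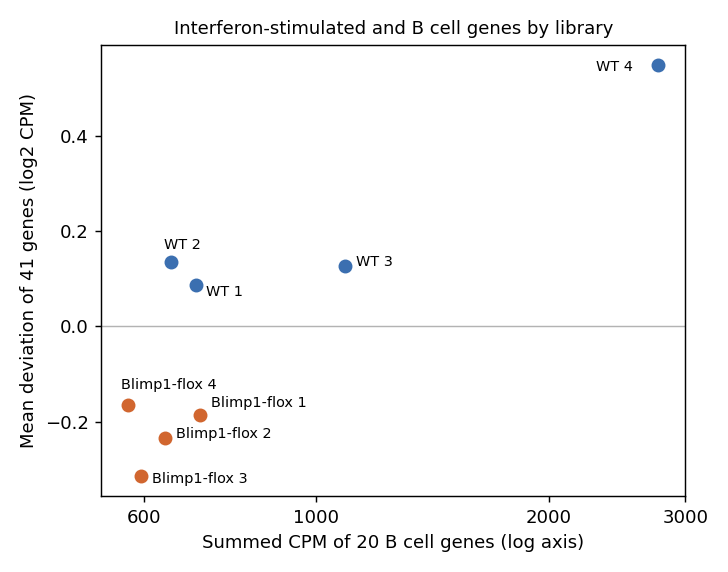
Each point is a library: summed CPM of 20 B cell genes (x, log axis) against the mean deviation of the 41 interferon-stimulated genes (y, log2 CPM), WT in blue and Blimp1-flox in orange. WT 4 lies at the upper right with 2761 CPM and 0.55, and the Blimp1-flox libraries lie lowest; WT 1 and WT 2 have sums of 651 to 700.3 CPM, within the range of Blimp1-flox, but a higher mean log2 CPM of the same genes (2.89 in each, at most 2.06 in Blimp1-flox).

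Without WT 4 the median log2 fold change of the 41 was -0.26, 39 of 41 stayed negative, and 35 of 41 became smaller in size. In that fit 4 genes passed, Irf1, Ifit1, Parp14 and Ifi203, with 0.272% of all genes called lower. No overlap between groups was seen for 12 genes, Oas2 included, against 6.31% of all genes with Blimp1-flox lower. Without both WT 4 and Blimp1-flox 3 the median was -0.26, and Irf8 passed besides these 4. When a B cell score was added to the model, no gene of the table passed in edgeR, with 706 at an unadjusted p under 0.05, and the median of the 41 was -0.09, with 27 negative and 14 positive. Genotype and the score had 63.4% of variance in common, so B cell RNA and genotype cannot be told apart in that fit. Irf1, Parp14 and Isg15 had log2 fold changes of -0.51, -0.66 and -0.51 in it, at least as large as without the score but not passing (edgeR adjusted p from 0.631 to 0.862), whereas Ifi203 went from -1.17 to -0.32, Ifit3 from -0.94 to -0.12 and Usp18 from -0.55 to 0.0066.

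**Figure D5:**
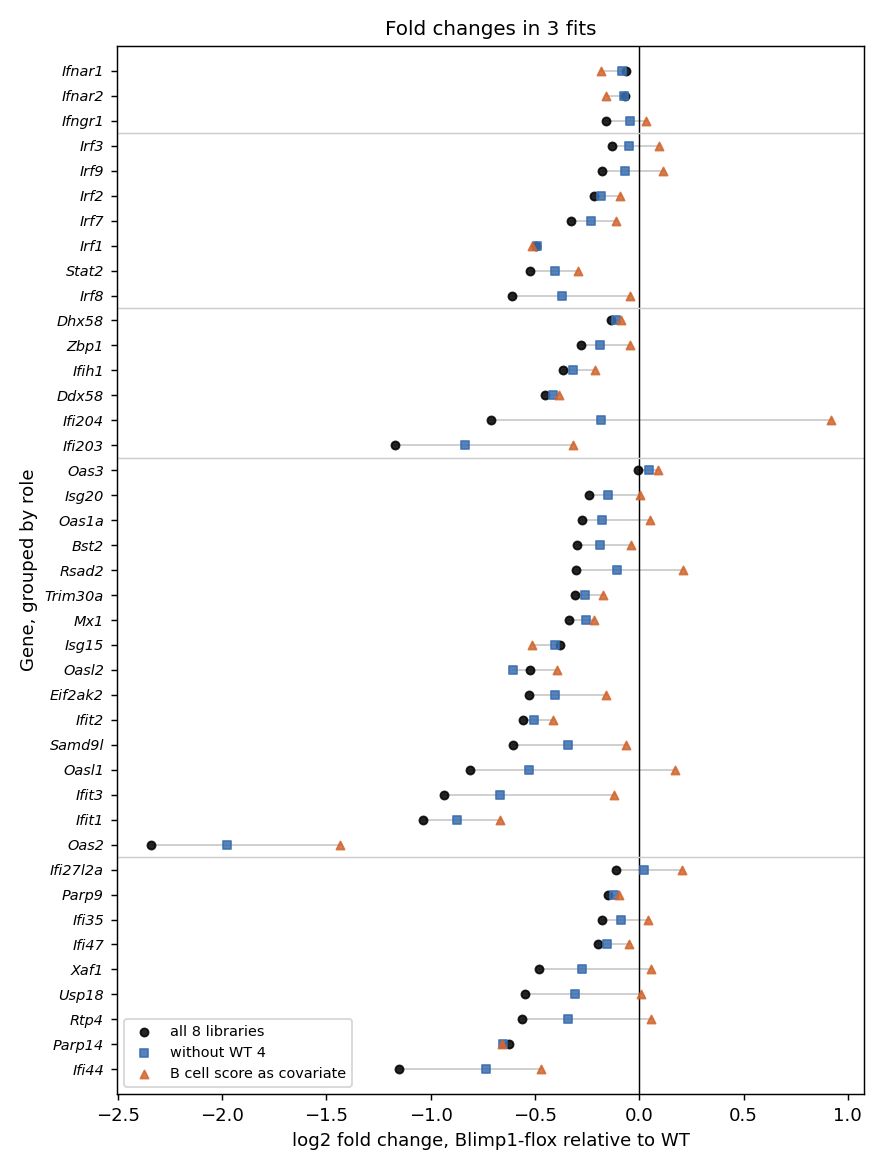
Log2 fold change of each of the 41 genes in 3 edgeR fits: all 8 libraries (black circles), without WT 4 (blue squares) and with a B cell score as covariate (orange triangles). Irf1 and Parp14 stay in place in all 3, while Ifi203, Ifit3, Usp18 and most others move toward or past 0 with the score.

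Other genes of the interferon pathway, 105 with a row and 82 tested, showed a weaker shift. None passed in edgeR, with 20 lower and 2 higher at an unadjusted p under 0.05 (9.05% of all tested genes were lower). DESeq2 called 5 lower (1.89% of all genes with an adjusted p) and limma-voom with quality weights 8 lower (2.27% of all genes). The median log2 fold change of the 82 was -0.13. Of them 58 were negative and 24 positive (70.7% negative, against 49.9% of all tested genes). Ifng, which encodes interferon gamma, was at 15.8, 19.0, 14.1 and 32.8 CPM in WT, against 9.18, 9.73, 9.96 and 9.41 CPM in Blimp1-flox. Its groups did not overlap, WT 4 was again the highest, and it missed the threshold in edgeR (-1.09 ± 0.23, SE; adjusted p = 0.0633) and passed in DESeq2 (adjusted p = 0.000706) and limma-voom (adjusted p = 0.0316). None of the 15 type I and type III interferon genes looked up had enough counts to be tested, and the most found in any library was 4 counts, of Ifna4 in Blimp1-flox 2. Within the 50 tested further interferon-induced genes, 38 had a negative log2 fold change (76%, against 49.9% of all tested genes) and 12 a positive one. Their median was -0.16. Slfn8 (-1.01) and Ifit1bl1 (-1.42), chosen after their values were seen, did not pass (edgeR adjusted p = 0.0820 and 0.0869).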

How the data were processed

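Per the submitters' processing notes, the tools were STAR 2.5.2b, the build mm10 and featureCounts (Subread 1.5.1); annotation and strand setting are not given in the sources used here. The deposited file holds unnormalized counts for each gene, and the deposited exon lengths served for RPKM only. Members and lists were chosen with earlier results of these data known. edgeR 4.0.16 in R 4.3.3 (filterByExpr, TMM with factors from 0.976 to 1.02, robust quasi-likelihood fit, genotype alone) tested 12363 genes, with Benjamini-Hochberg adjustment over all of them; it was tested on simulated data. Standard errors derive from the F statistic. CPM and RPKM were computed from the deposited counts. Values in every library are given for every called gene and the 3 most abundant genes (RPKM) of each of 5 roles; those of Ifi203, Ifit2, Oas2 and Ms4a1 were added after they were seen. Alternatives were DESeq2 1.42.0, limma-voom (limma 3.58.1) with quality weights, scaling by RLE, upper quartile or library totals, other filters, a replicate block, libraries left out, a B cell score and a threshold of 0.1. No 2 libraries agreed within sampling noise. Values of 2 further genes are not reported here.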

Additional observations from a re-analysis of the deposited data

Results flagged for a closer look

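A library was far from the other 3 of its group in 3 of 48 groups examined; chance flags about 1 in 20. Averaged over the 41 genes, WT 4 deviated by 0.548 (log2 CPM), the other WT libraries by 0.087 to 0.14. Ifnar1 was at 252 CPM in WT 2 and 210.4 to 211 CPM in the other WT libraries. Irf7 was at 90.2 CPM in Blimp1-flox 2 and 107 to 110.1 CPM in the other Blimp1-flox libraries.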

How the results depend on the processing

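Among 19 alternatives, RLE, upper-quartile and library-total scaling and both other filters called the same 3 genes of the 41. In those fits 0.235% to 0.262% of all genes were called lower. The count was 8 in DESeq2, Oas2 among them, and 8 in limma-voom with quality weights. It was 5 at a threshold of 0.1 (0.817% of all genes called lower), 5 without WT 4 and Blimp1-flox 3 (0.534%) and 0 with a B cell score. Over fits without 1 library each it ran from 0 to 5. Without WT 1 it was 5, with 0.654% of all genes. Without WT 2, WT 3 or Blimp1-flox 4 it was 1, with 0.0638% to 0.191%. Without Blimp1-flox 1 it was 0, with 0.0559%. Without Blimp1-flox 2 or Blimp1-flox 3 it was 2, with 0.136% and 0.287%. The replicate block called 2, with 0.186% of all genes called lower, and lost Irf1 (edgeR adjusted p = 0.0657). Same-numbered libraries correlated at 0.10, 0.15, -0.10 and -0.11, so the numbers were not taken as pairs. Genes without overlap, Oas2 included, numbered 11 with all libraries, 12 to 17 over fits without 1 library each (5.24% to 8.63% of all genes), and 10 to 12 under other scalings (4.17% to 4.38%). The B cell difference was -2.31 as a mean of log2 CPM. The median log2 fold change was -0.0901 with a B cell score. Pathway genes called were 5 in DESeq2, 8 in limma-voom, 1 with no filter, 2 without WT 4 and Blimp1-flox 3, 3 at a threshold of 0.1, and 0 to 4 over fits without 1 library each. Over all genes the shares called lower in these fits were 1.89%, 2.27%, 0.262%, 0.534%, 0.817%, and 0.0559% to 0.654%.

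With a B cell score 14 of the 41 genes were positive. Signs were followed here only for the 17 genes that were called or among the 3 most abundant of their role. Of these 17, the sign turned with the score for Isg20 (0.0022), Ifngr1 (0.034), Ifi27l2a (0.21), Ifi35 (0.041) and Irf9 (0.11). Ifi27l2a also turned in limma-voom (0.11) and without WT 4 and Blimp1-flox 3 (0.16), and ran from -0.24 to 0.026 without 1 library each. Ifnar1 ran from -0.11 to 0.0069 in those fits. The cause was not tested. These 6 genes passed in none of the fits. Genes below a few CPM, such as Oas2, Ifi204 and Ifi44, are limited by depth; with the stricter filter Oas2 was not tested.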
